A study of Mus musculus with 8 samples.

Results

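The Skint region is the stretch of mouse chromosome 4 that holds the tandem Skint genes and their lower flank. It was taken as every 5 kb bin of the deposited chromosome 4 table from position 111800000 to 113695000, which gave 380 of 31301 bins, or 1.21% of the table, and a length of 1900 kb in the mm10 build. All coordinates are 1-based. A position was read as the start of its bin. The bins were chosen by coordinate and not by their timing.

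The study measured replication timing in mouse embryonic stem cells. Repli-seq marks newly made DNA with BrdU, a thymidine analog, sorts cells on their DNA content into an early and a late fraction of S phase, and sequences the marked DNA of each sort. The control was the JM8N4 embryonic stem cell line, and the other group is labelled Klf4 enhancer deletion. Klf4 is a transcription factor gene of the pluripotent state that also lies on chromosome 4. The labels give neither the ends of the deletion nor the number of clones. All cells had 2 h of BrdU, and DNA of 40000 cells was taken per fraction. The 8 libraries made 4 profiles, control 1, control 2, deletion 1 and deletion 2, each from 1 early and 1 late library. The labels do not say whether the profiles of a genotype came from separate cultures, so the spread between them, and any p-value resting on it, may be technical. They also do not say whether profiles with the same number were made together. No read counts come with the scores, so the depth behind each value is unknown.

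The deposited values are timing scores without a unit, scaled by the authors to a common interquartile range, which was 4.60 in each profile over the chromosome. A higher score was taken as earlier replication. The sources used here do not state that direction, but it is the usual one, and protein-coding genes of the chromosome had a median control score of 2.49 while the median over all positions was -0.79 in control 1 and -0.37 in control 2. A score below 0 is called late here.

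Skint genes, named for the selection and upkeep of intraepithelial T cells, encode butyrophilin-related membrane proteins of the immunoglobulin superfamily. They are known from thymic epithelium and skin keratinocytes, and Skint1 is required for the gamma delta T cells that populate mouse epidermis. Genes that are silent in a cell type, and tandem clusters in gene-poor DNA, often replicate late in S phase, while CpG-rich promoters of broadly expressed genes usually lie in early replicating DNA.

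The RefSeq table of the GRCm38.p6 assembly, which is the mm10 build, lists 11 Skint genes, of which 10 overlap the region and 9 lie wholly inside it. Promoter windows from RefSeq, 300 bases long with 250 before and 50 after the start of transcription, were found for all 11 genes, 12 windows in all because Skint4 has 2. Those of 5 Skint genes are shown because they stand for the earlier end of the cluster (Skint8 and Skint1), for a gene inside the region whose genotypes did not overlap (Skint2), and for the pair that were nearly the same in sequence (Skint6 and Skint5). The window of Spata6, the gene that crosses the lower edge, is shown for contrast. Sequences run 5′ to 3′ on the gene's own strand, and capitals mark CpG dinucleotides. The windows lie at chr4:111919305-111919604 on the plus strand (Skint8), chr4:112006019-112006318 on the plus strand (Skint1), chr4:112613490-112613789 on the plus strand (Skint2), chr4:113286924-113287223 on the minus strand (Skint6), chr4:113999454-113999753 on the minus strand (Skint5) and chr4:111719760-111720059 on the plus strand (Spata6).
Skint8: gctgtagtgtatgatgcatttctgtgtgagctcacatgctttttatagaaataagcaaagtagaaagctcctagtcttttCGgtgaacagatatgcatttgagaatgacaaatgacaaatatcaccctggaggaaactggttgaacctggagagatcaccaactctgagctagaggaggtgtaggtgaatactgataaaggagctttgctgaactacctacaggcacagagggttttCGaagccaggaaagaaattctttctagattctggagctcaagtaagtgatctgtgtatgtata
Skint1: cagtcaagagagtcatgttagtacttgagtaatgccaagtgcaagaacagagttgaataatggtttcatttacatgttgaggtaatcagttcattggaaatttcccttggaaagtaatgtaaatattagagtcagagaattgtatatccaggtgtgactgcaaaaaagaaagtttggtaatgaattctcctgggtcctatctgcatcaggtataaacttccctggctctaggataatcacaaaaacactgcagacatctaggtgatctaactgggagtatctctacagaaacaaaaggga
Skint2: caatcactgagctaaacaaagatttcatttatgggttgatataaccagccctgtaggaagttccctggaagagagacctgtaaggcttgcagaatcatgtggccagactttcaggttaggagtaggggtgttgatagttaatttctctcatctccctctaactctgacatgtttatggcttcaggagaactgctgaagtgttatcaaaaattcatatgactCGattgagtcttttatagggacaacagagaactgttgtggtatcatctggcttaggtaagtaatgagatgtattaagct
Skint6: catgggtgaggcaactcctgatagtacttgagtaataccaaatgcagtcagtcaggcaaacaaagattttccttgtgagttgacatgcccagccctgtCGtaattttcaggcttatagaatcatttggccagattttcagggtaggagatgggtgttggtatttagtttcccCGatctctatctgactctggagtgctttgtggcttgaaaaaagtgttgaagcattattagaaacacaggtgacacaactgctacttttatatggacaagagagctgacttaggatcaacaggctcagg
Skint5: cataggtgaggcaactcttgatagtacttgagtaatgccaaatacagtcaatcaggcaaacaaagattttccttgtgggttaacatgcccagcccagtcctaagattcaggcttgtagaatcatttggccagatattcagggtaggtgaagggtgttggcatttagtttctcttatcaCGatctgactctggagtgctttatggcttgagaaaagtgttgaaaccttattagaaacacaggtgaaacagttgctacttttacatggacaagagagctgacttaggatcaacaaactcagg
Spata6: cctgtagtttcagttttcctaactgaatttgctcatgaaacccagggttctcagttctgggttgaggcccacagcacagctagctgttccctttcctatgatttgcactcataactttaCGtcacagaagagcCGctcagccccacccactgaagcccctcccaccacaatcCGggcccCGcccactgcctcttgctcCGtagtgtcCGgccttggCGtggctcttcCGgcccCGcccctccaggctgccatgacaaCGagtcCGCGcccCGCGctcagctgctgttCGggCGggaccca

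The Skint windows were poor in CpG. They held between 0 and 2 CpG each, with a median of 1, whereas the median was 7 over all 32851 RefSeq promoter windows and 15 over the 1367 windows of protein-coding genes on chromosome 4. Skint1, Skint4 and Skint9 had 0, and Skint8 and Skint6 had 2, while the Spata6 window had 16. At most 2 CpG were found in 100% of the Skint windows, in 23.3% of all windows and in 12.6% of those on chromosome 4. The median GC content was 38.5% for Skint, 52.7% over all windows and 58.3% for chromosome 4. The letters TATAAA, searched on both strands, occurred in 8 of 12 Skint windows (66.7%) and in 13.6% of all windows. The letters TGANTCA, also on both strands, occurred in 1 of 12 (8.33%, Skint11) and in 7.81% of all windows. Neither motif can contain the other, and a match describes the letters only. Promoters of the other late tandem families of the chromosome were closer to Skint in CpG, with a median of 3 for the Mup genes, which encode major urinary proteins, and of 2 for the Pramel and Oog genes, which are expressed in germ cells and early embryos. They were also closer in GC content, with medians of 40% for Mup and 43.3% for Pramel and Oog, so low GC was not particular to Skint. TATAAA occurred in 14.3% of the Mup windows and in 28% of the Pramel and Oog windows.

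The Skint6 and Skint5 windows matched at 269 of 300 bases (89.7%). The next most alike pair, Skint10 and Skint11, reached 60.3%, and the median of the 66 pairs was 51.7%. Near copies such as these can share short reads, and the sources used here do not give how such reads were counted. Both genes are therefore reported with that uncertainty.

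The Skint region replicated late in both genotypes. Its mean score was -2.01 in control 1, -2.39 in control 2, -2.07 in deletion 1 and -2.06 in deletion 2. All 4 profiles lay well below their own chromosome-wide median, with differences of -1.22, -2.02, -1.33 and -1.85 in the same order. No bin of the 380 scored above 0 in any profile. The lowest bin was -2.79 in control 1, -3.49 in control 2, -2.77 in deletion 1 and -3.30 in deletion 2, and the highest was -0.76, -0.53, -0.68 and -0.15. The whole region thus lay on the late side of 0, with a span of more than 2 score units within each profile.

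The region was late but not the latest stretch of the chromosome. Between 19.7% (control 2) and 33.8% (control 1) of all scored positions were lower than the region's mean in the same profile, and the deletion profiles gave 32.2% and 21.8%. Among 80 windows of the region's length tiled over the chromosome, it ranked 21 from the latest in control 1, 10 in control 2, 17 in deletion 1 and 13 in deletion 2. By the control mean 14 windows were later, and 40 windows lay below 0 in all 4 profiles.

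**Figure D1:**
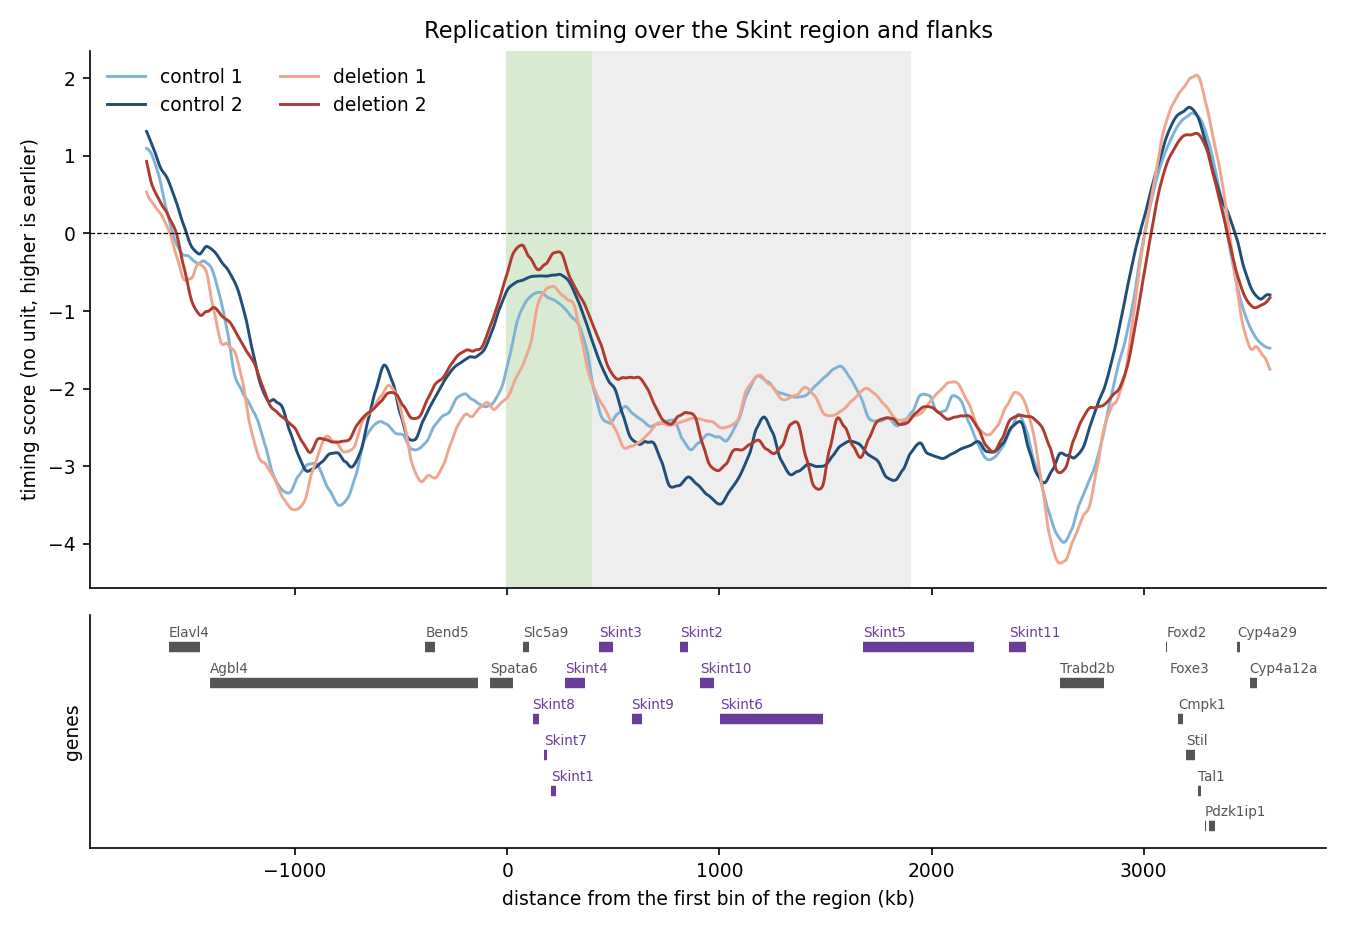
Timing score of each 5 kb bin (upper panel, no unit, higher is earlier) against distance in kb from the first bin of the Skint region, with protein-coding genes below and Skint genes in purple; the green band marks the 395 kb of earlier bins at the lower end and the grey band the other 1505 kb. Each line is 1 profile, and all 4 stay below 0 across the region, with a maximum over the green band and a fall beside it.

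The cluster had 2 levels. At its lower end a shoulder of 79 bins, 395 kb from 111800000 to 112194999, was the earlier stretch, set as the run of region bins around the maximum where the mean of the 4 profiles was above -1.5. Its lower end is the edge of the region, and the mean of the 4 profiles stayed above that level for a few bins below it. Single profiles differed there. Control 2 and deletion 2 were above -1.5 at the region's first bin and below the region, whereas control 1 and deletion 1 were under it. Deletion 1 still averaged -1.84 over the first 100 kb of the region. The split at -1.5 was made after the profiles were seen and is given as a description. The shoulder scored -1.05 in control 1, -0.67 in control 2, -1.23 in deletion 1 and -0.45 in deletion 2. The other 301 bins, a core of 1505 kb, scored -2.26, -2.84, -2.29 and -2.48 in that order. The shoulder stood above the core by 1.22, 2.17, 1.06 and 2.03, with larger values in control 2 and deletion 2. That it stood above follows in part from the choice of its bins on the same 4 profiles.

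At a level of -1.5 the step from shoulder to core fell between a point inside Skint4 and a point inside Skint3. Moving up in coordinates from the maximum, scores passed -1.5 at 112175 kb in control 1 and 112215 kb in control 2, both in the gap between these genes. They passed it at 112161 kb in deletion 1, inside Skint4, and at 112250 kb in deletion 2, inside Skint3. These points lie 375, 415, 361 and 450 kb above the start of the region. Those of control 2 and deletion 2 were the farther ones, by 40.2 kb within control and 88.9 kb within deletion. The difference of the genotype means, 10.4 kb, was smaller than either gap. The steepest fall over 100 kb started at 112140000 in control 1 (-1.14), 112135000 in control 2 (-0.77) and 112115000 in deletion 1 (-1.10), each within Skint4. In deletion 2 the steepest fall, -0.86 from 113165000, lay inside Skint6 instead.

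Genes of the cluster were set against the same level of -1.5. Their scores average the same bins, so they describe the step again and are not a separate test of it. A gene is given by the average over all bins that overlap it, including bins beyond the region's edge. Skint8, Skint7, Skint1 and Skint4, the 4 Skint genes at the lower end, scored above -1.5 in all 4 profiles, and the other 7 scored below -1.5 in all 4. Between the fourth and the fifth earliest Skint gene there was a gap of 0.995 in control 1, 1.03 in control 2, 1.02 in deletion 1 and 0.95 in deletion 2. Every Skint gene was late in every profile, 11 of 11, compared with 216 of 1301 protein-coding genes on the chromosome (16.6%). The median of all positions was also below 0 in each profile, so a late score need not be later than most positions. Skint8 in control 1 (-0.774, median -0.793) and Skint1 in deletion 1 (-0.687, median -0.733) lay above that median. All other Skint gene scores lay below the median of their profile.

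Spata6 (chr4:111719951-111829142), a gene of sperm tail assembly, crosses the lower edge, with 6 of its 23 bins inside. It scored -1.93 (control 1), -0.95 (control 2), -2.17 (deletion 1) and -0.77 (deletion 2). Slc5a9 (chr4:111875374-111902796), which encodes a sodium-dependent sugar transporter, scored -0.89 (control 1), -0.58 (control 2), -1.60 (deletion 1) and -0.22 (deletion 2). For both genes the number 2 profiles were the higher ones, and the genotypes overlapped. For Slc5a9 deletion 1 was below control 1 (-0.71) and deletion 2 above control 2 (0.36), and the mean difference of -0.18 became 0.51 without deletion 1.

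Skint8 (chr4:111919555-111950361) scored -0.77 (control 1), -0.55 (control 2), -1.09 (deletion 1) and -0.42 (deletion 2). Skint7 (chr4:111972924-111988260) scored -0.80 (control 1), -0.55 (control 2), -0.74 (deletion 1) and -0.40 (deletion 2). Skint1 (chr4:112006269-112029538), the gene needed for epidermal gamma delta T cells, scored -0.85 (control 1), -0.54 (control 2), -0.69 (deletion 1) and -0.27 (deletion 2). Within each control profile these 3 neighbours differed less from each other than control 1 and control 2 did at any of them. Skint1 was the earliest Skint gene in control 2 and in both deletion profiles, and Skint8 was the earliest in control 1. Skint4 (chr4:112072016-112168076), on the falling side of the maximum, scored -1.13 (control 1), -0.78 (control 2), -1.06 (deletion 1) and -0.67 (deletion 2).

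Skint3 (chr4:112232245-112300468) is the first gene of the core, at -2.39 (control 1), -1.82 (control 2), -2.29 (deletion 1) and -1.62 (deletion 2). Skint9 (chr4:112385969-112433985) scored -2.35 (control 1), -2.69 (control 2), -2.71 (deletion 1) and -1.86 (deletion 2). In Skint3 the number 2 profiles were again the higher ones, whereas in Skint9 control 2 lay below control 1. Skint2 (chr4:112613598-112652248) scored -2.66 (control 1), -3.20 (control 2), -2.42 (deletion 1) and -2.32 (deletion 2). Skint10 (chr4:112710830-112774861) scored -2.62 (control 1), -3.35 (control 2), -2.41 (deletion 1) and -2.86 (deletion 2). These were the latest genes of the cluster in control cells, at ranks 12 and 10 from the latest of 1301 genes by control mean. Of the genes that overlap the region, Skint2 alone had genotypes that did not overlap, 1 of 12, where 15.1% of all 1301 genes had both deletion profiles above and 6.53% had both below.

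Skint6 (chr4:112804616-113286973), 482 kb long, covers 98 bins and scored -2.13 (control 1), -2.94 (control 2), -2.12 (deletion 1) and -2.81 (deletion 2). Skint5 (chr4:113477891-113999503), 522 kb long, has 45 of its 105 bins inside the region and scored -2.29 (control 1), -2.89 (control 2), -2.16 (deletion 1) and -2.39 (deletion 2). In both of these long genes the number 2 profiles were the later ones, opposite to the genes of the shoulder. Skint11 (chr4:114163384-114245028), beyond the upper edge, scored -2.44 (control 1), -2.49 (control 2), -2.11 (deletion 1) and -2.37 (deletion 2), and its genotypes did not overlap. Agbl4 (chr4:110397649-111664324), the nearest gene below the region and a deglutamylase of tubulin, scored -2.55 (control 1), -2.06 (control 2), -2.58 (deletion 1) and -2.06 (deletion 2).

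**Figure D2:**
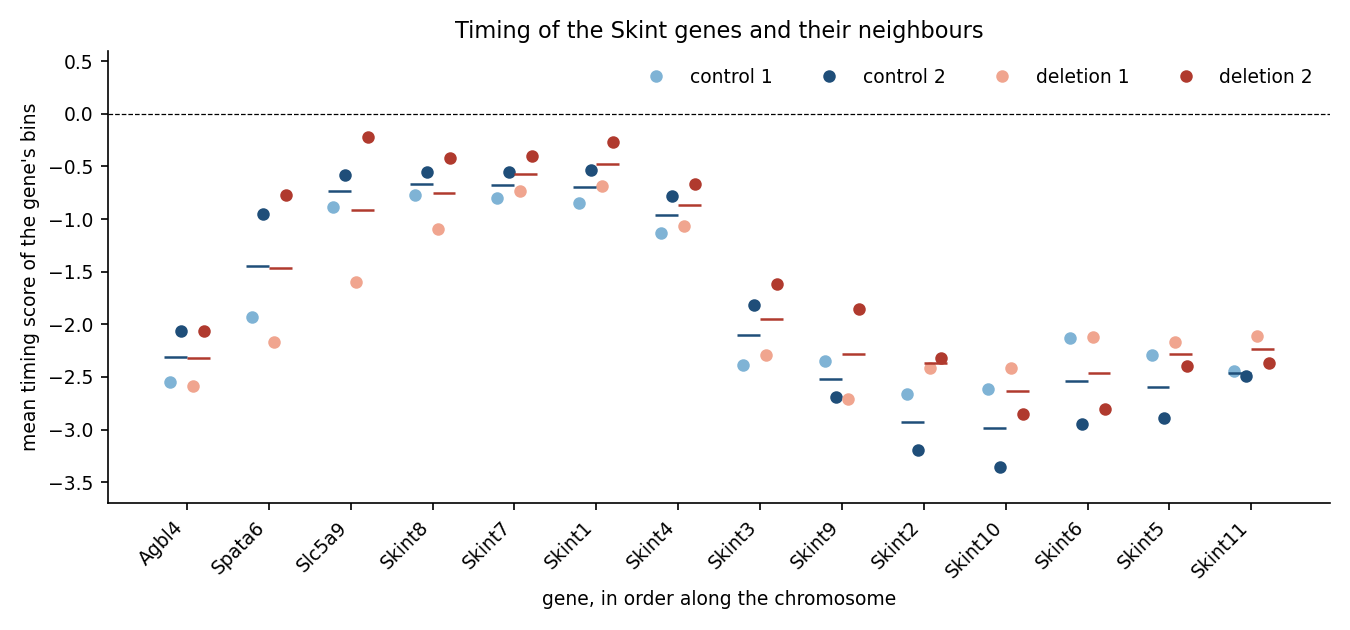
Mean timing score (no unit, higher is earlier) of the bins of each Skint gene and its neighbours, in order along the chromosome, with 1 point per profile and a short line at the mean of each genotype (n = 2). Skint8, Skint7, Skint1 and Skint4 lie above -1.5 in all profiles, the 7 other Skint genes lie below it, and Skint2 and Skint11, 2 of 11 Skint genes, have both deletion points above both control points, against 15.1% of all 1301 genes.

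Apart from these genes the region holds 10 other RefSeq genes, 9 pseudogenes and 1 snRNA. Protein-coding genes covered 239 of the 380 bins (62.9%), which scored -2.03, -2.44, -2.01 and -2.14 in control 1, control 2, deletion 1 and deletion 2. The 141 bins that overlap none scored -1.98, -2.31, -2.16 and -1.92. Both kinds of bin were late in every profile, the genic ones by more in control and in deletion 2 and by less in deletion 1.

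Every bin of the region had a score in all 4 profiles, so 0 of 380 positions were missing. The table as a whole lacked a value in at least 1 profile at 642 positions, in 3 runs. They were 609 positions from 5000 to 3045000, 3 positions from 55465000 to 55475000 that lacked a value in the deletion profiles only, and 30 positions from 156360000 to 156505000. The nearest missing positions lay 56325 kb below the region and 42665 kb above it. The windows around the Mup and Pramel genes had no missing position either.

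The region had no border with early DNA inside its limits. The late run that contains it began at 110223 kb in control 1, 110289 kb in control 2, 110210 kb in deletion 1 and 110241 kb in deletion 2, where scores crossed 0. All 4 of these points lie inside Elavl4, which encodes a neuronal RNA-binding protein, between 1511 and 1590 kb below the region. The run ended at 114804 kb in control 1, 114781 kb in control 2, 114806 kb in deletion 1 and 114835 kb in deletion 2. Those ends lie in the lncRNA gene Gm33655, 1081 to 1135 kb above the region, and 71.5 to 125 kb from Foxd2, a forkhead factor gene. The late run was 4581 kb long in control 1, 4493 kb in control 2, 4596 kb in deletion 1 and 4594 kb in deletion 2, and it held 17 protein-coding genes. It ranked 7, 7, 6 and 6 from the longest of 45, 41, 43 and 44 late runs, whose median length was between 742.5 and 870 kb.

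The borders differed little between genotypes. The lower border lay 30.3 kb lower in deletion cells (difference -30.3 kb, exact two-sided permutation p = 0.667), with an SD of 46.5 kb in control and 21.4 kb in deletion (n = 2 each). Its direction turned to 2.62 kb without control 2. At a level of -1 the late run started inside the region, between 112081 kb (control 1) and 112178 kb (deletion 2). Those points lie on the falling side of the shoulder and not at the border in Elavl4, and they differed by 33.6 kb. At each profile's own chromosome median the run started at 110453 kb in control 2 but inside the region in the other profiles. The difference of 746 kb at that level thus compared unlike places. The upper border lay 27.96 kb higher in deletion cells, with an SD of 16.2 kb in control and 20.3 kb in deletion (n = 2 each). Both deletion profiles crossed 0 above both controls there, though deletion 1 was only 2.16 kb above control 1, while deletion 2 was 53.8 kb above control 2. Its exact two-sided permutation p was 0.333, the smallest that 2 profiles against 2 can give, so that test cannot pass 0.05 here.

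The flanks continued the profile of the region. Over the 100 kb below it scores were -2.08 in control 1, -1.10 in control 2, -2.20 in deletion 1 and -0.97 in deletion 2. Over the 100 kb above it they were -2.15, -2.77, -2.30 and -2.28. Over 500 kb below they were -2.34, -1.84, -2.62 and -1.69, and over 500 kb above -2.43, -2.76, -2.24 and -2.44. The shoulder was therefore an earlier island between 2 later stretches in every profile.

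The genotypes did not differ in the mean timing of the region beyond the spread between profiles. Control profiles averaged -2.20 ± 0.27 and deletion profiles -2.06 ± 0.01 (SD, n = 2 per genotype). Deletion minus control gave 0.14, with a 95% interval from -0.52 to 0.80 and an SE of 0.31 in limma's fit over the 80 windows of equal length (adjusted p = 0.972, with Benjamini-Hochberg adjustment). The exact two-sided permutation p was 1. The spread in that fit is moderated over all windows. No window of that length passed an adjusted p of 0.05 (0% of 80), and 0 had an unadjusted p under 0.05. Deletion 1 minus control 1 gave -0.06 and deletion 2 minus control 2 gave 0.34, values of opposite sign. The deletion profiles were higher over the chromosome by a median of 0.16, and relative to that shift the region differed by -0.02. Its difference ranked 37 from the lowest of the 80 windows, which ranged from -0.41 to 0.56.

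Without control 2 the difference of the region became -0.05, and without control 1 it became 0.33. In the shoulder control averaged -0.86 ± 0.27 and deletion -0.84 ± 0.55, and in the core they averaged -2.55 ± 0.41 and -2.38 ± 0.14 (SD, n = 2 per genotype). The differences were 0.02 for the shoulder and 0.17 for the core, both within the spread of the profiles. The shoulder difference ran from -0.37 without deletion 2 to 0.41 without deletion 1, and was -0.0871 with each profile's median subtracted. The core difference ran from -0.12 without control 2 to 0.46 without control 1, and was -0.00064 after quantile normalization.

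No position of the region was called by limma over all scored positions, 0 of 380, at an adjusted p under 0.05, and the same held for the chromosome, 0% of 30659. At an unadjusted p under 0.05 there were 0 in the region and 299 (0.975%) on the chromosome. Both deletion profiles lay above both controls at 46 positions of the region (12.1%), against 16% of all positions. Both lay below at 0 positions, against 5.86% of all positions. The share of positions with deletion above control was thus near that of the chromosome, and somewhat under it. The deletion mean was higher at 264 positions (69.5%), and the sign was shared by both numbers at 223 (58.7%). The median difference of all positions was itself 0.16, so most positions of the chromosome were also higher in deletion. The chromosome's share for shared signs is not given here.

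In 100 kb windows limma called 0 of 19 in the region and 0% of 1534 on the chromosome, with 0 and 13 at an unadjusted p under 0.05. In 1 of the 19 windows both deletion profiles lay above both controls, against 15.5% of all windows, and in 0 they lay below, against 5.22%. That window, from 112600000 to 112699999, scored -2.69 (control 1), -3.19 (control 2), -2.41 (deletion 1) and -2.34 (deletion 2). Its difference of 0.57 was the highest of the 19 (limma, adjusted p = 0.9999).

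By gene, limma called 0 of the 12 protein-coding genes that overlap the region and 0% of 1301 on the chromosome, with 0 and 17 at an unadjusted p under 0.05. Both deletion profiles were above both controls in 1 of the 12 genes, Skint2, against 15.1% of all genes, and below in 0, against 6.53%. The deletion mean was the higher in 9 of 12, and most of all 1301 genes were also higher in deletion, with a median difference of 0.14. For Skint2 control averaged -2.93 ± 0.38 and deletion -2.37 ± 0.07 (SD, n = 2 per genotype). The gene differed by 0.56, with an SE of 0.34 and a 95% interval from -0.15 to 1.26 (limma, adjusted p = 0.999 without a block). Deletion 1 exceeded control 1 by 0.24 and deletion 2 exceeded control 2 by 0.87, and without control 2 the difference was 0.29.

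The positions where the genotypes did not overlap formed 4 runs. The longest, 120 kb from 112600000 to the bin at 112715000, covered Skint2 and the lower end of Skint10 and scored -2.69, -3.21, -2.40 and -2.38 in control 1, control 2, deletion 1 and deletion 2. Another of 25 kb lay from 112505000 with no gene, and those of 35 kb from 113555000 and 50 kb from 113605000 lay in Skint5. All 4 runs were in the core, and in each control 2 was the latest profile. The highest difference of any bin was 0.62 at 112670000 and the lowest was -0.34 at 113285000, near the 5′ end of Skint6, where the genotypes overlapped.

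**Figure D3:**
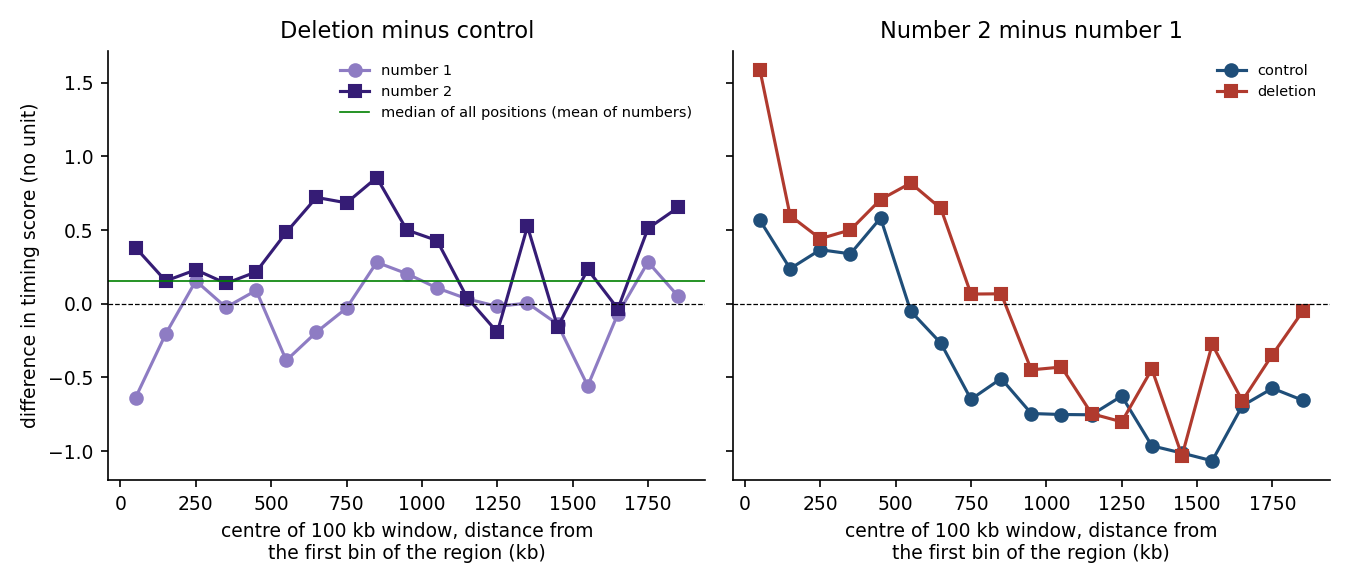
Differences in mean timing score (no unit) over the 19 windows of 100 kb in the Skint region, against the distance of each window's centre from the first bin in kb; the left panel gives deletion minus control for the profiles numbered 1 and 2 with the chromosome's median difference of 0.16 as a green line, and the right panel gives the profile numbered 2 minus that numbered 1 in each genotype. The left curves share their sign in 12 windows, and the right curves go from above 0 at the lower end to below 0 farther up.

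By the gap between bins, profiles that share a number were closer in the region than profiles that share a genotype. The mean absolute gap between bins was 0.204 between control 1 and deletion 1 and 0.392 between control 2 and deletion 2. It was 0.610 between the controls and 0.562 between the deletion profiles. Across bins, which are not independent since neighbouring bins carry similar scores, Pearson's r was 0.877 and 0.944 within numbers and 0.874 and 0.687 within genotypes. In the core alone, without the step, r was 0.564 and 0.687 within numbers but 0.371 within control and -0.325 within deletion. The order of levels along the core was therefore not repeated between the deletion profiles.

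The contrast between shoulder and core differed with the number. Control 2 minus control 1 was 0.38 in the shoulder and -0.58 in the core, and deletion 2 minus deletion 1 was 0.78 and -0.19. The shoulder minus core step was larger in control 2 than control 1 by 0.95 and in deletion 2 than deletion 1 by 0.97, while deletion minus control was -0.16 for number 1 and -0.14 for number 2. By 100 kb window, control 2 was above control 1 in the 5 lowest windows and below it in the other 14. Deletion 2 was above deletion 1 in the 9 lowest windows and below it in the other 10. The SD over the region's bins was 0.568 in control 1, 0.968 in control 2, 0.523 in deletion 1 and 0.923 in deletion 2. Its ratio, number 2 over number 1, was 1.70 in control and 1.76 in deletion, against medians of 0.950 and 0.972 over the 80 windows, and it ranked 2 and 4 from the highest. This contrast was noticed in the profiles and was not tested, and the labels do not say what the number stands for.

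In most windows of the chromosome number 2 profiles were the higher ones. The median gap over the 80 windows was 0.31 in control and 0.46 in deletion, whereas the Skint region had -0.38 and 0.01, at ranks 2 and 9 from the lowest. The region was not alone in this. Other windows also had the number 2 profile as the lower one, in control or in both genotypes. Every window of that kind was late in all profiles, though other late windows had the number 2 profiles as the higher ones. The window of equal length around the Mup genes had gaps of 0.56 and 0.49 and that around the Pramel genes 0.58 and 0.77.

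**Figure D4:**
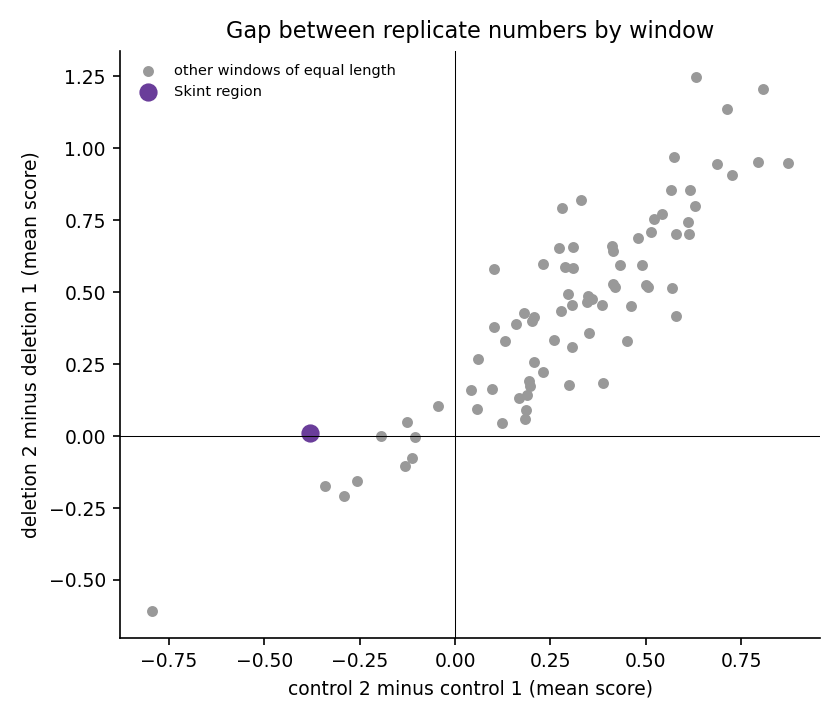
Mean timing score of control 2 minus control 1 (horizontal) and of deletion 2 minus deletion 1 (vertical), no unit, for the 80 windows of 1900 kb on chromosome 4, with the Skint region in purple. Most windows lie above 0 on both axes, and the Skint region lies at -0.38 and 0.01.

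Within the core each profile had minor maxima, with a prominence of at least 0.3, at places that were not shared by all. Control 1 had one at 113370000 (-1.71), between Skint6 and Skint5. Control 2 had maxima at 113010000 in Skint6 (-2.36) and at 113415000 (-2.68). Deletion 1 had maxima at 112990000 in Skint6 (-1.82) and at 113495000 in Skint5 (-1.996). Deletion 2 had maxima at 113160000 in Skint6 (-2.43) and at 113360000 (-2.37). Maxima in Skint6 in control 2 and deletion 1 thus lay near each other, as did those between Skint6 and Skint5 in control 1 and deletion 2. At that prominence none was found at 1 place in all 4 profiles. Control 1 and deletion 2 also had a maximum in Skint6 near those of control 2 and deletion 1, but with a prominence under 0.3. A weak maximum in Skint6 was therefore shared by all 4 profiles when smaller ones were counted.

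Beside other tandem families of the chromosome, Skint genes were among the late ones. The median gene score in control was -2.47 for the 11 Skint genes, -2.23 for 22 Mup genes, -2.20 for 27 Pramel and Oog genes, -0.48 for 10 Cyp4 genes, which encode fatty acid hydroxylases, and 0.71 for 14 Ifna genes, which encode type I interferons. Late in every profile were 16 of 22 Mup, 20 of 27 Pramel and Oog, 5 of 10 Cyp4 and 2 of 14 Ifna genes, next to 11 of 11 Skint genes. The median deletion minus control difference was 0.22 for Skint, 0.12 for Mup, 0.15 for Pramel and Oog, 0.17 for Cyp4, 0.25 for Ifna and 0.14 over all 1301 genes. Genes of a family are neighbours with similar scores, so they are not independent, and no test was made between families. Skint genes were also long, with a median of 64.0 kb against 4.01 kb for Mup and 18.9 kb over all genes. The window around the Mup genes scored -2.49, -1.94, -2.24 and -1.755 in control 1, control 2, deletion 1 and deletion 2, close to the Skint region, and that around the Pramel genes -0.98, -0.41, -0.98 and -0.21.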

How the data were processed

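The deposited table gives 1 timing score per 5 kb position and profile, a score that the authors scaled to a common interquartile range, per the file headers and name. Bowtie2, SAMtools, bedtools and mm10 are named in the submitters' processing notes, and the log base, smoothing and read depth are not given in the sources used here. Planned log2 ratios were therefore treated as scores, with the same tests. Of 31301 positions 30659 had 4 values. Profiles were grouped by column name. Positions, 100 kb windows, windows of 1900 kb tiled from the region and protein-coding genes (mean of overlapping bins) were each fitted over the whole chromosome with limma 3.58.1 (lmFit, eBayes) in R 4.3.3, as two-sided tests called at 0.05 after Benjamini-Hochberg adjustment. The fit over positions was checked on simulated data, with independent noise at each position and planted differences larger than any in the region. That check does not give the power for smaller differences or for scores that are alike in neighbouring bins. Single values had exact permutation tests. Borders were interpolated linearly where scores crossed 0. Named genes were all Skint genes, protein-coding genes overlapping the region and the nearest on each side; Elavl4, Gm33655 and Foxd2 were named as places of borders. Genes and promoter sequences came from RefSeq GRCm38.p6. The region, gene lists and tests were chosen with earlier results of these data known. Alternatives were median centring, quantile normalization, own median and interquartile range, a replicate block, limma's trend and robust options, other crossing levels, positions as bin ends, leaving out bins near missing positions, and leaving out each profile.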

Additional observations from a re-analysis of the deposited data

How the results depend on the processing

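Only 2 profiles per genotype were measured, at unknown depth. Calls in the region were 0 under each of 33 alternatives. The upper border stayed higher in deletion cells, by 13.6 to 42.3 kb, Skint2 by 0.29 to 0.82 and Skint11 by 0.098 to 0.36. For Skint2 the adjusted limma p lay between 0.357 and 0.999 where no profile was left out. In all of these both deletion profiles already lay above both controls, so leaving out 1 profile could not turn the sign. The replicate block, limma's options and leaving out bins near missing positions did not alter the differences. Under the other alternatives, which could have turned the sign, the border differed by 28.7 to 41.7 kb, Skint2 by 0.40 to 0.57 and Skint11 by 0.11 to 0.23. The differences below changed sign under some alternatives, deletion minus control. Under quantile normalization the region mean became -0.0138, the lowest score -0.0883, the shoulder -0.0640 and the core -0.00064. With median centring the lowest score became -0.0058 and the shoulder -0.0871, with own median and interquartile range -0.00572 and -0.0871. Taking each profile's median as the level, or centring on it, moved the lower border difference to 746 kb. The share of bins above the level moved to 1.32 points, because the shoulder exceeded the median in the other profiles but not in control 2. The late run then started inside the region in those profiles and below it in control 2, so the 746 kb compared unlike places. At a level of -1 the run started inside the region in every profile, on the falling side of the shoulder, and its start differed by 33.6 kb. The inner border at -2 differed by 79.0 kb. Leaving out 1 profile at a time gave -0.0501 to 0.33 for the region, -0.24 to 0.45 for the lowest score, -63.1 to 2.62 kb for the lower border, -34.1 to 54.8 kb for the inner border, -0.37 to 0.41 for the shoulder, -0.12 to 0.46 for the core and -0.63 to 0.34 for shoulder minus core. The Slc5a9 difference ran from -0.86 to 0.51, the latter without deletion replicate 1. Gene control scores moved by more than their spread in 27 of 126 alternatives. These were median centring and own median and interquartile range, apart from Skint11 under quantile normalization. Leaving out a deletion profile or bins near missing positions could not move a control score. Leaving out 1 of 2 controls always moves their mean by less than their SD. The count is therefore no measure of how stable these scores are. With the replicate number as a replicate block, which the labels do not state to be a pairing, the region difference was 0.14 (SE 0.12, limma adjusted p = 0.442), 785 positions (2.56%), 3 windows of 100 kb and 0 genes of the chromosome were called and none of them in the region, where 25 positions had an unadjusted p under 0.05. Deviations of same-numbered profiles from their genotype mean correlated at 0.637 over the chromosome and 0.812 in the region. The shoulder, core and inner border were added after seeing the data. The causes of these changes were not tested, apart from the lower border.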
